A study of Danio rerio with 14 samples.

Results

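Heat shock proteins and their cochaperones were followed in the livers of adult zebrafish that were fed a regular diet or overfed for a month. The group was taken by name from the array's annotation: every gene whose symbol begins with hsp, dnaj, cct and a digit, bag and a digit, or stip1, without hspa5 and dnajb11; among several, the probe set of highest mean stood for each gene. The rule gave 58 genes of the 8793 with a probe set of their own on the array. By the location of their mammalian counterparts 42 act in the cytosol or nucleus, 8 in the mitochondrion and 7 in the endoplasmic reticulum, and dnajc4 was not placed. No probe set of a single gene carried the symbol stip1, and that gene was not analysed here.

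RNA of 14 livers was measured on a single-colour Affymetrix array. The fish were ahcy+/+ or ahcy+/-, where ahcy encodes the enzyme that splits S-adenosylhomocysteine, the product left after methylation, and the labels say no more of the mutant allele. The groups were 4 regular-diet ahcy+/+ livers, 3 regular-diet ahcy+/- livers, 5 overfed ahcy+/+ livers and 2 overfed ahcy+/- livers. Each diet was 1 tank that held both genotypes, so the diet and its tank cannot be told apart. The spread behind each p-value is that among fish of a tank. The labels give neither sex nor exact age. Arrays are called here by the number in their title, and all values are the authors' log2 probe set values unless a fold is named.

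Chaperones bind unfolded proteins and help them reach or keep their shape. HSP70 proteins grip short stretches of chain in a cycle driven by ATP; J proteins (the DNAJ family) bring clients to them and start ATP hydrolysis, and exchange factors such as HSP110 and BAG proteins release them again. HSP90 acts later on signalling proteins, and the chaperonins (CCT in the cytosol, HSP60 with HSP10 in mitochondria) enclose a client in a chamber. The mitochondrion and the endoplasmic reticulum each have their own HSP70 machinery, and a liver that exports plasma proteins relies heavily on the latter. Heat shock factor drives the classical heat-inducible genes, while the compartments have stress programmes of their own.

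All 58 genes passed the filter on low values (above 4 on at least 2 arrays) and were tested among 15134 probe sets. Array medians lay between 5.95 and 6.12. The 13 measured hepatocyte markers averaged 12.78 to 13.28 on the regular-diet arrays and 13.21 to 13.47 on the overfed arrays. Other cell types left signal as well, and 12 exocrine pancreas markers averaged 8.83 to 12.99 on the regular-diet arrays and 7.16 to 12.29 on the overfed arrays, and 10 intestine markers 5.95 to 10.26 and 5.55 to 6.99. The 13 skeletal muscle markers averaged 6.34 to 7.02 on the regular-diet arrays and 5.97 to 6.32 on the overfed arrays, with no overlap. For 5 erythrocyte markers the ranges were 6.59 to 8.23 and 7.47 to 8.29, and for 10 leukocyte markers 6.895 to 7.88 and 6.87 to 7.80. The part of muscle, blood cells and hepatocyte share in the results below was not tested. Regular-diet ahcy+/+ array 9 correlated least with its own group (mean r of 0.912, against 0.942 to 0.974 elsewhere). It was also highest in vitellogenin, at a mean of 13.9 over 3 probe sets, against 5.37 to 12.40 on the other 13 arrays. The 12.40 was read on overfed ahcy+/- array 1. The vitellogenin covariate used below was a separate mean, taken over 5 probe sets. In bulk tissue, fewer cells of a type and less RNA per cell cannot be told apart.

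Of the 58 genes, 7 were called as higher after overfeeding when the diet difference was averaged over both genotypes, and none was called as lower. These were the mitochondrial hspd1, hspa9 and dnaja3a, the endoplasmic reticulum genes dnajc3a and dnajb12a, and the cytosolic hspa4a and dnajb6a. The share called, 12.1%, lay near the 10.3% of all probe sets called in this comparison (limma, adjusted p of 0.05 over all probe sets). Counting higher calls only, the background was 5.83%. The median log2 difference of the 58 genes was 0.01, against -0.07 over all probe sets, with 29 genes higher and 29 lower. By compartment, 3 of 8 mitochondrial genes, 2 of 7 endoplasmic reticulum genes and 2 of 42 cytosolic genes were called. Their median log2 differences were 0.28, 0.24 and -0.05. In ahcy+/+ livers alone 5 genes passed, with hspd1, dnajb12a, hspa4a and dnajb6a higher and dnaja2b lower, against 4.5% of all probe sets (3.07% higher, 1.43% lower). Without overfed ahcy+/- array 4, 2 genes passed in the averaged comparison, dnajb6a higher (adjusted p = 0.0477) and dnaja2b lower (adjusted p = 0.0262). In ahcy+/+ livers the count was 0 without regular array 2 or overfed array 6, 1 without regular array 5 or 6 or overfed array 2 or 4, 9 without regular array 9, 8 without overfed array 3 and 3 without overfed array 7.

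**Figure D1:**
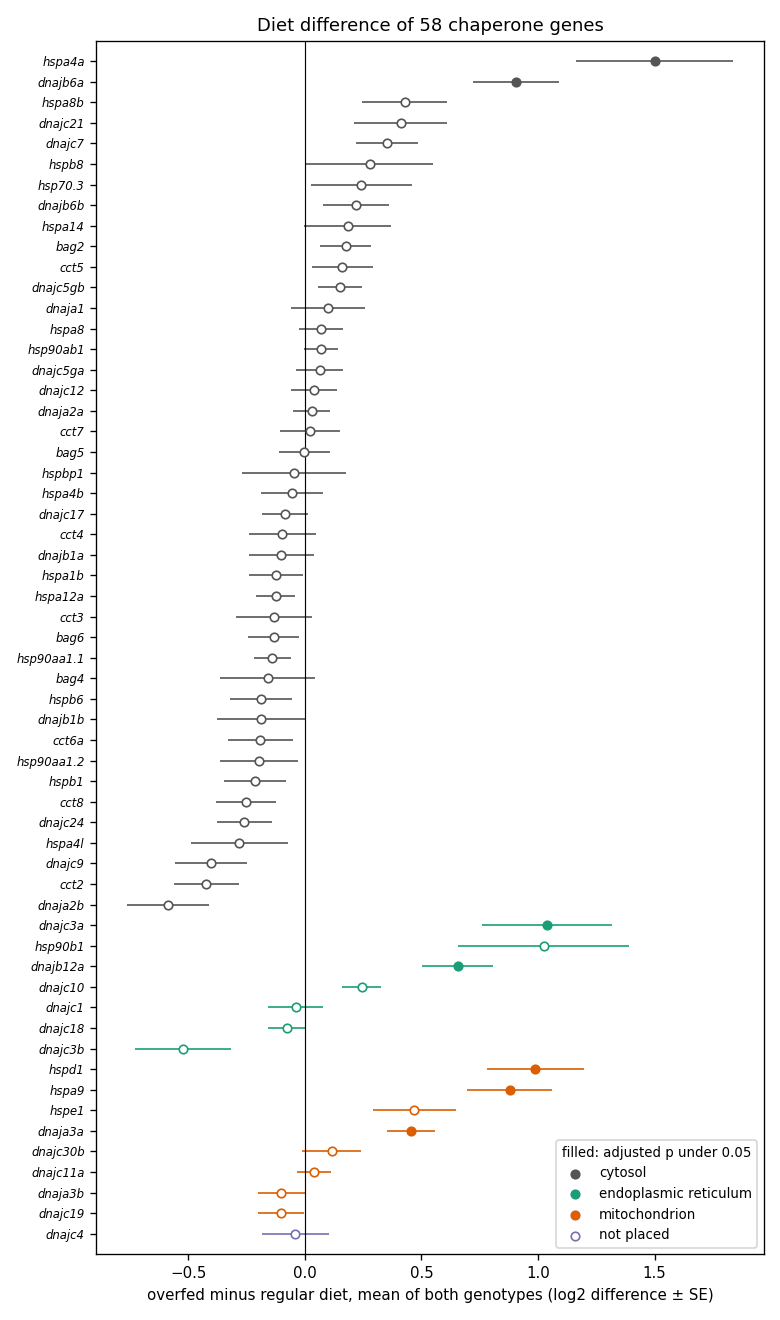
Overfed minus regular diet for the 58 genes, averaged over both genotypes (log2 difference, horizontal axis; bars are the SE), one gene per line and sorted within compartments by colour. The 7 filled points, 2 cytosolic, 2 of the endoplasmic reticulum and 3 mitochondrial, passed an adjusted p of 0.05, and 34 of the 42 cytosolic genes lie within 0.3 of 0.

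Of the 8 mitochondrial genes, 6 were higher on average over both genotypes and 3 of them passed. HSP60, the chamber of the mitochondrial chaperonin, is encoded by hspd1. On regular-diet ahcy+/+ arrays 2, 5, 6 and 9 it stood at 10.004, 9.84, 9.75 and 10.20, and on regular-diet ahcy+/- arrays 3, 7 and 8 at 9.81, 10.12 and 10.03. On overfed ahcy+/+ arrays 2, 3, 4, 6 and 7 it stood at 11.07, 10.14, 10.80, 11.47 and 11.35, and on overfed ahcy+/- arrays 1 and 4 at 10.54 and 11.35. All overfed arrays but ahcy+/+ array 3 lay above every regular-diet array. The gene rose 1.98-fold on average over both genotypes (log2 difference 0.99 ± 0.21 SE, adjusted p = 0.0117) and 2.02-fold in ahcy+/+ livers alone (1.02 ± 0.25, adjusted p = 0.0358). The first call was lost without overfed ahcy+/- array 4 (adjusted p = 0.0834). The second was lost without any one of regular arrays 2, 5 and 6 and overfed arrays 2, 4, 6 and 7 (adjusted p from 0.0596 to 0.0997), with quantile normalization (0.0521) and with only the compared groups in the fit (0.0532).

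Mortalin, the HSP70 of the mitochondrial matrix that pulls in imported proteins, is encoded by hspa9. It stood at 9.32, 9.32, 9.22 and 9.80 on regular-diet ahcy+/+ arrays 2, 5, 6 and 9 and at 9.13, 9.41 and 9.01 on regular-diet ahcy+/- arrays 3, 7 and 8. After overfeeding it stood at 10.01, 9.85, 10.22, 10.47 and 10.55 on ahcy+/+ arrays 2, 3, 4, 6 and 7, and at 9.61 and 10.66 on ahcy+/- arrays 1 and 4. The ahcy+/+ groups did not overlap, as for 8 of the 58 genes upwards and 2 downwards (background 4.75% and 3.92%), and among all 14 arrays only overfed ahcy+/- array 1 fell into the regular-diet range, set by array 9. The gene rose 1.84-fold over both genotypes (0.88 ± 0.18, adjusted p = 0.0107; 0.0691 without overfed ahcy+/- array 4). In ahcy+/+ livers it differed by 0.80 ± 0.21 (adjusted p = 0.0516). There hspa9 was called with a low-value filter at 6 (adjusted p = 0.0417), array weights (0.00734) and centring on array medians (0.0417). It was also called with the vitellogenin covariate (0.0442) and with only the compared groups in the fit (0.0365). With quantile normalization, the replicate block or the pancreas and intestine covariates it was not called. It has a second probe set of lower mean, which the rule did not use. There the 7 regular-diet arrays lay between 6.45 and 7.10 and the 7 overfed arrays between 7.44 and 7.83 with no overlap, as for 3.55% of all probe sets (2.09% higher, 1.46% lower). That probe set rose in ahcy+/+ livers (0.93 ± 0.14, adjusted p = 0.00568) and over both genotypes (0.85 ± 0.12, adjusted p = 0.00162), and kept both calls without any single array.

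HSP10, the lid of the HSP60 chamber, is encoded by hspe1, which lies beside hspd1 with no other protein-coding gene between them in the RefSeq zebrafish annotation. Its values overlapped more between the diets, from 10.16 to 10.57 on the 4 regular-diet ahcy+/+ arrays and from 10.41 to 11.36 on the 5 overfed ones. The ahcy+/- arrays read 10.19, 10.44 and 10.25 on the regular diet and 10.22 and 11.20 after overfeeding. The difference over both genotypes, 0.47 ± 0.18, did not pass (adjusted p = 0.109; 95% interval 0.08 to 0.85). Without overfed ahcy+/- array 1, which leaves 1 array in that group, the difference was 0.72. With the vitellogenin covariate hspe1 was called as higher (0.64, adjusted p = 0.0426).

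The J protein partner of mortalin, dnaja3a, read 6.25, 6.18, 6.35 and 6.56 on regular-diet ahcy+/+ arrays 2, 5, 6 and 9, and 6.10, 6.04 and 6.29 on regular-diet ahcy+/- arrays 3, 7 and 8. On the overfed arrays it read 6.96, 6.68, 6.59, 6.87 and 6.63 in ahcy+/+ arrays 2, 3, 4, 6 and 7 and 6.46 and 6.82 in ahcy+/- arrays 1 and 4. The ahcy+/+ groups were again separate, with regular array 9 just below overfed array 4. The gene rose 1.37-fold over both genotypes (0.45 ± 0.10, adjusted p = 0.0154; 0.104 without overfed ahcy+/- array 4 and 0.0849 with the mean levels of pancreas and intestine markers as covariates). Its paralogue dnaja3b (-0.10), the import motor gene dnajc19 (-0.10), the cristae gene dnajc11a (0.04) and dnajc30b (0.11) did not pass.

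**Figure D2:**
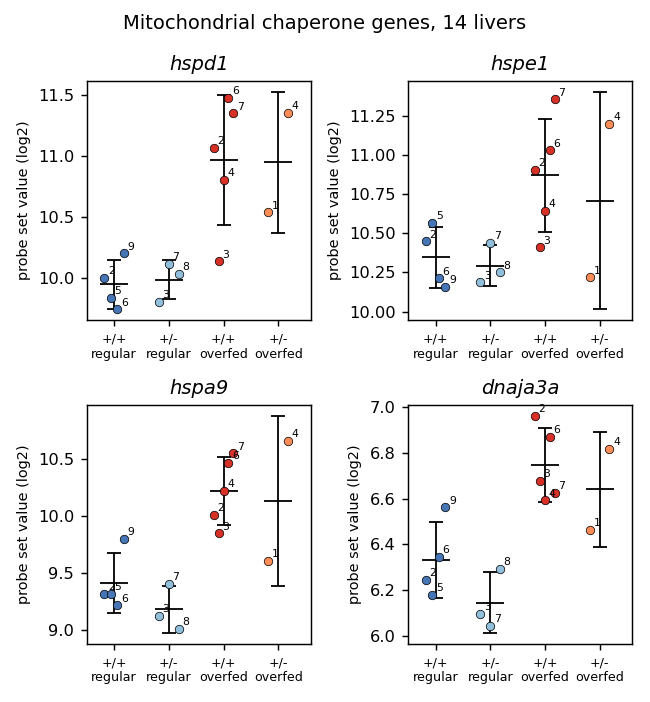
Log2 probe set values of hspd1, hspe1, hspa9 and dnaja3a on the 14 arrays, by genotype and diet; points are arrays with their number, horizontal lines the group mean and bars the SD. Overfed array 3 of ahcy+/+ is the lowest of its group for hspd1, hspe1 and hspa9, and array 1 is the lower of the overfed ahcy+/- pair in all 4 panels.

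In the endoplasmic reticulum the largest differences were those of dnajc3a and hsp90b1, with average log2 differences of 1.04 and 1.02, and only the first passed. The dnajc3a product (p58IPK in mammals) is a luminal J protein that also inhibits a kinase which halts translation under stress. It read 8.68, 9.54, 9.27 and 9.68 on regular-diet ahcy+/+ arrays 2, 5, 6 and 9 and 8.97, 9.72 and 9.41 on regular-diet ahcy+/- arrays 3, 7 and 8. On overfed ahcy+/+ arrays 2, 3, 4, 6 and 7 it read 10.47, 9.30, 10.47, 11.10 and 10.70, and on overfed ahcy+/- arrays 1 and 4 it read 10.76 and 9.90. All overfed arrays but array 3 lay above the regular-diet range. It rose 2.06-fold over both genotypes (1.04 ± 0.28, adjusted p = 0.0334), and in ahcy+/+ livers the difference of 1.12 ± 0.33 did not pass (adjusted p = 0.0745). The first call was the least stable of the 7. It ended without any one of 9 arrays, namely regular ahcy+/+ 2 and 6, regular ahcy+/- 3 and 8, overfed ahcy+/+ 2, 4 and 6, and overfed ahcy+/- 1 and 4 (adjusted p from 0.0512 to 0.146), and with the mean vitellogenin level as a covariate (0.0869).

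GRP94, the HSP90 of the endoplasmic reticulum, is encoded by hsp90b1. It read 10.31, 10.56, 10.13 and 10.62 on regular-diet ahcy+/+ arrays 2, 5, 6 and 9 and 10.56, 11.42 and 10.56 on the ahcy+/- arrays 3, 7 and 8. Overfed ahcy+/+ arrays 2, 4, 6 and 7 read 12.02, 12.06, 12.50 and 11.79, whereas array 3 read 9.997, below every other array. Overfed ahcy+/- arrays 1 and 4 read 12.29 and 10.97. The difference in ahcy+/+ livers, 1.27 ± 0.43, did not pass (adjusted p = 0.118), nor did that over both genotypes, 1.02 ± 0.37 (adjusted p = 0.0909). Without overfed ahcy+/+ array 3 both passed, at 1.69 (adjusted p = 0.00982) and 1.23 (adjusted p = 0.00847).

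The membrane J protein gene dnajb12a, whose mammalian product acts in the clearance of misfolded membrane proteins, was the one member whose 7 overfed arrays all lay above its 7 regular-diet arrays. It ran from 6.39 on array 9 to 7.33 on array 5 in regular-diet ahcy+/+ livers and from 7.02 to 7.19 in regular-diet ahcy+/- livers. Overfed arrays read 7.64, 7.66, 7.67, 8.14 and 7.90 in ahcy+/+ livers (arrays 2, 3, 4, 6 and 7) and 7.45 and 7.79 in ahcy+/- livers (arrays 1 and 4). The background for such a separation upwards was 2.09% of all probe sets, and dnajb12a was 1 of 58. It rose 1.73-fold in ahcy+/+ livers (0.79 ± 0.18, adjusted p = 0.0264) and 1.58-fold over both genotypes (0.66 ± 0.15, adjusted p = 0.0175). Without overfed ahcy+/- array 4 the latter stood at an adjusted p of 0.103. The former did not pass without regular array 2 or 6 or overfed array 6 (adjusted p from 0.0539 to 0.0746), or with only the compared groups in the fit (0.0558).

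Of the other endoplasmic reticulum genes, the luminal reductase gene dnajc10 was slightly higher in ahcy+/+ livers, by 0.33 ± 0.10 (adjusted p = 0.0802), with regular-diet ahcy+/+ arrays between 5.65 and 5.85 and overfed ones between 5.90 and 6.25. The dnajc3a paralogue dnajc3b pointed the other way, with -0.52 ± 0.20 over both genotypes (adjusted p = 0.12). Neither passed in the main fit, nor did dnajc1 (-0.04) or dnajc18 (-0.08). With array weights dnajc10 passed as higher in ahcy+/+ livers (0.34, adjusted p = 0.0302) and dnajc18 as lower (-0.30, adjusted p = 0.0305). Over both genotypes dnajc10 passed as higher with quantile normalization (adjusted p = 0.0418) and with centring on array medians (adjusted p = 0.0355). The mean of the pancreas markers was 12.29 and 7.16 on overfed ahcy+/- arrays 1 and 4, the order of hsp90b1 and dnajc3a there. On regular-diet ahcy+/- arrays 3, 7 and 8 it was 12.99, 11.18 and 12.15, the reverse of the order of dnajc3a. On regular-diet ahcy+/+ arrays 2, 5, 6 and 9 it was 8.83, 10.20, 9.96 and 12.38, the same order as dnajc3a. It lay between 8.62 and 10.56 on the overfed ahcy+/+ arrays, and 4 of those 5 were higher in dnajc3a than the regular-diet ahcy+/- arrays. How much of these values came from pancreas cells was not tested. With the mean pancreas and intestine levels as covariates, dnajc3a also passed in ahcy+/+ livers (1.58, adjusted p = 0.033), and dnajb12a passed neither there (adjusted p = 0.0774) nor over both genotypes (adjusted p = 0.176).

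**Figure D3:**
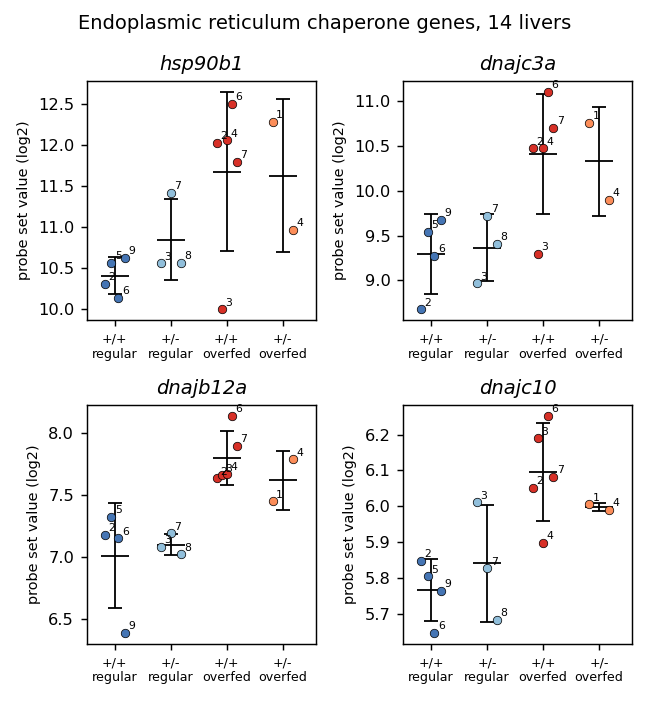
Log2 probe set values of hsp90b1, dnajc3a, dnajb12a and dnajc10 on the 14 arrays, by genotype and diet; points are arrays with their number, lines the mean and bars the SD. Overfed ahcy+/+ array 3 sits in or below the regular-diet range for hsp90b1 and dnajc3a and among its group for dnajb12a and dnajc10.

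In the cytosol 2 genes rose, 1 fell in ahcy+/+ livers, and the classical heat-inducible genes did not pass. The biggest difference of all 58 genes was that of hspa4a, an HSP110 that exchanges the nucleotide of HSP70. It read 7.62, 7.52, 7.65 and 8.57 on regular-diet ahcy+/+ arrays 2, 5, 6 and 9 and 7.41, 7.90 and 8.08 on regular-diet ahcy+/- arrays 3, 7 and 8. Overfed ahcy+/+ arrays 2, 3, 4, 6 and 7 read 9.45, 8.57, 9.51, 9.93 and 10.24, and overfed ahcy+/- arrays 1 and 4 read 8.11 and 10.09. Regular array 9 and overfed array 3 nearly met, at 8.571 and 8.573. The gene rose 3.25-fold in ahcy+/+ livers (1.70 ± 0.40, adjusted p = 0.031) and 2.83-fold over both genotypes (1.501 ± 0.34, adjusted p = 0.0154). The latter stood at an adjusted p of 0.0988 without overfed ahcy+/- array 4 and at 0.0514 with the pancreas and intestine covariates. The former did not pass without any one of regular arrays 2, 5 and 6 and overfed arrays 2, 4, 6 and 7 (adjusted p from 0.0531 to 0.0946). Its paralogue hspa4b read 8.70 to 9.15 on the regular-diet ahcy+/+ arrays and 8.59 to 9.26 on the overfed ones and differed by 0.07 there, and hspa4l by 0.01; neither passed.

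The J protein gene dnajb6a, whose mammalian product keeps aggregation-prone proteins apart, read 5.87, 5.34, 5.67 and 6.41 on regular-diet ahcy+/+ arrays 2, 5, 6 and 9 and 5.602, 6.48 and 6.56 on regular-diet ahcy+/- arrays 3, 7 and 8. It read 6.97, 6.88, 6.77, 6.78 and 6.55 on overfed ahcy+/+ arrays 2, 3, 4, 6 and 7 and 7.09 and 7.02 on overfed ahcy+/- arrays 1 and 4. The overfed arrays were closer to each other than the regular-diet arrays, and only ahcy+/+ array 7 lay below a regular-diet array (6.554 against 6.562). The gene rose 1.87-fold over both genotypes (0.91 ± 0.19, adjusted p = 0.0106), the one call of the 7 that held without every single array. In ahcy+/+ livers it rose 1.96-fold (0.97 ± 0.22, adjusted p = 0.0264), and did not pass without any one of regular arrays 2, 5 and 6 and overfed arrays 2, 4 and 6 (adjusted p from 0.0551 to 0.0879). A second dnajb6a probe set of lower mean differed by 0.35 ± 0.14 over both genotypes (adjusted p = 0.132), and the paralogue dnajb6b by 0.22. In ahcy+/+ livers that second probe set differed by 0.21 ± 0.17 (adjusted p = 0.52), and the diets overlapped. Regular array 9 was the lowest of its group there (5.65), but the highest on the probe set used (6.41).

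The gene that fell was dnaja2b, a J protein partner of cytosolic HSP70. It read 7.96, 7.93, 7.36 and 7.71 on regular-diet ahcy+/+ arrays 2, 5, 6 and 9 and 6.87, 7.20, 6.41, 6.76 and 6.99 on overfed ahcy+/+ arrays 2, 3, 4, 6 and 7, with no overlap. The ahcy+/- arrays read 7.29, 7.30 and 6.95 on the regular diet (arrays 3, 7 and 8) and 6.41 and 7.38 after overfeeding (arrays 1 and 4). In ahcy+/+ livers it differed by -0.89 ± 0.21 (adjusted p = 0.0302), that is 0.538 of the regular-diet level, and over both genotypes by -0.59 ± 0.18 (adjusted p = 0.0509). The ahcy+/+ call ended without any one of regular arrays 2 and 5 and overfed arrays 2, 4 and 6 (adjusted p from 0.0536 to 0.0944). Its probe set carries the suffix by which Affymetrix marks probes shared with other transcripts. A second dnaja2b probe set without that suffix differed by -0.83 ± 0.18 in ahcy+/+ livers (adjusted p = 0.0223) and by -0.58 ± 0.15 over both genotypes (adjusted p = 0.0303). The former call of that probe set was lost without regular array 2 or 5 or overfed array 4 or 6, and the latter without any one of 5 arrays, with adjusted p of up to 0.154. The paralogue dnaja2a, by contrast, differed by 0.03 (95% interval -0.14 to 0.20), and dnaja1 by 0.10; neither passed.

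The constitutive genes hsp90ab1 and hspa8 did not pass, and the intervals of both were narrow. The main cytosolic HSP90 gene hsp90ab1 read 12.87 to 12.90 on the 4 regular-diet ahcy+/+ arrays and 12.81 to 13.14 on the 5 overfed ones, and the 95% interval of its difference over both genotypes ran from -0.09 to 0.22. The constitutive HSP70 gene hspa8 read 12.27 to 12.47 and 12.42 to 12.79, with an interval from -0.13 to 0.27. The heat-inducible hsp70.3, read by a probe set marked as prone to cross-hybridisation, ran from 5.31 to 5.96 and from 5.35 to 6.40, with an interval from -0.23 to 0.71. A probe set shared by hsp70.1, hsp70l and hsp70.3 differed by 0.41 ± 0.23 (adjusted p = 0.256). The heat-inducible HSP90 genes hsp90aa1.1 (-0.14) and hsp90aa1.2 (-0.20), which are neighbours in the RefSeq annotation, the inducible J protein genes dnajb1a (-0.10) and dnajb1b (-0.19), and hspa1b (-0.12) did not pass either. Nor did the other HSP70 genes hspa8b (0.43) and hspa14 (0.18) or the HSP70-like hspa12a (-0.12).

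The 7 members that encode subunits of the cytosolic chaperonin CCT, which folds actin and tubulin, gave log2 differences over both genotypes from -0.42 for cct2 to 0.16 for cct5, with a median of -0.13 and none called. A further subunit gene, tcp1, falls outside the name rule and was higher, as given with the other folding genes. The cct2 gene had the smallest p of them (-0.42 ± 0.14, adjusted p = 0.0691). It ran from 9.65 to 10.35 on the regular-diet arrays and from 9.32 to 10.06 on the overfed arrays, so the diets overlapped. It was called, as lower, without regular ahcy+/+ array 6 (adjusted p = 0.0482) or overfed ahcy+/+ array 2 (adjusted p = 0.0471), with quantile normalization (adjusted p = 0.0403) and with the vitellogenin covariate (adjusted p = 0.0332). The others were cct3 (-0.13), cct4 (-0.10), cct6a (-0.19), cct7 (0.02) and cct8 (-0.25).

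Apart from the HSP110 genes, 5 genes were classed here by family with the exchange factors of HSP70. Of these, bag2 (0.18), bag4 (-0.16), bag5 (0.00), bag6 (-0.13) and hspbp1 (-0.05) did not pass. Nor did the small heat shock proteins, which hold unfolded proteins without ATP, with hspb1 at -0.21, hspb6 at -0.19 and hspb8 at 0.28. With the vitellogenin covariate hspb8 was called as higher (0.76, adjusted p = 0.0228). Of the remaining J proteins, dnajc7, an adaptor between HSP70 and HSP90, differed by 0.35 ± 0.13 (adjusted p = 0.107) and the nuclear histone-binding dnajc9 by -0.40 ± 0.16 (adjusted p = 0.116). Without regular ahcy+/+ array 9, which read 5.43 for dnajc9 where the other regular-diet arrays all read at least 5.88, dnajc9 passed as lower (-0.51, adjusted p = 0.00531) and dnajc7 as higher (0.41, adjusted p = 0.0459). Second probe sets of the remaining genes did not pass either, and that of hsp90ab1 pointed the other way from the one used (-0.20 ± 0.10, adjusted p = 0.205). The other 6 cytosolic J protein genes of the DNAJC class lay between -0.26 for dnajc24 and 0.41 for dnajc21, and of them dnajc24 was called as lower with the vitellogenin covariate (adjusted p = 0.0252).

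**Figure D4:**
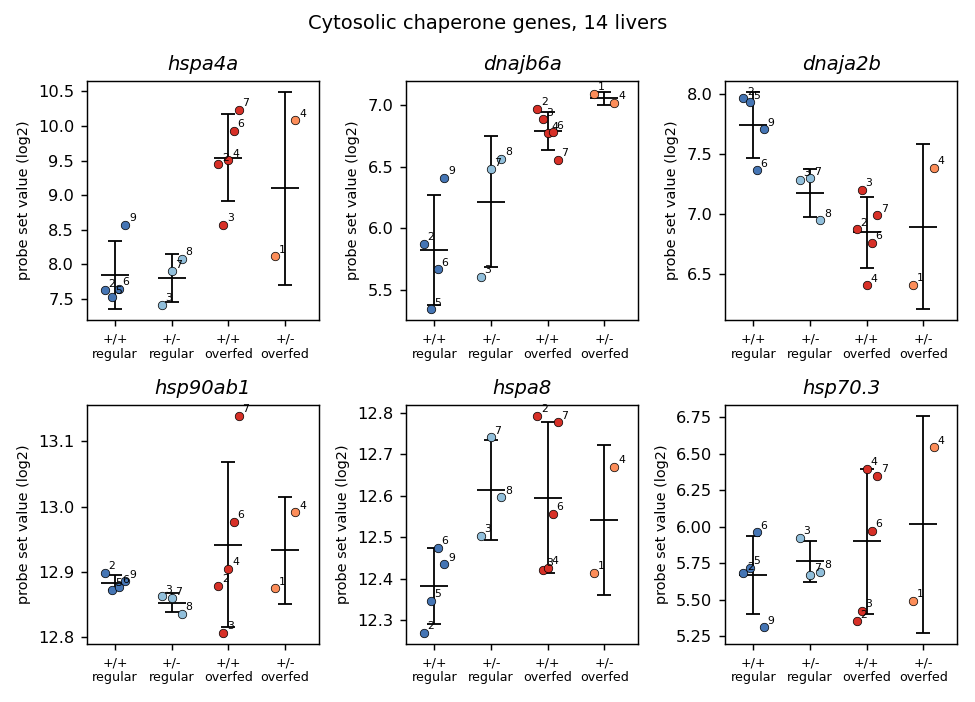
Log2 probe set values of hspa4a, dnajb6a, dnaja2b, hsp90ab1, hspa8 and hsp70.3 on the 14 arrays, by genotype and diet; points are arrays with their number, lines the mean and bars the SD, and each panel has its own scale. The upper row holds the 3 cytosolic genes that passed in ahcy+/+ livers, and in the lower row the diets overlap for all 3 genes.

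Overfeeding was also compared within ahcy+/- livers, which have 3 and 2 arrays. None of the 58 genes passed (limma, where 15 of all probe sets did, 0.0991%, with 0.0661% higher). At an unadjusted p under 0.05 there were 6 of the 58, 5 of them higher. The background at that threshold was 2145 of the 15134 probe sets, 953 of them higher. The log2 differences there were 0.96 ± 0.34 for hspd1 (adjusted p = 0.237), 0.95 ± 0.29 for hspa9 (adjusted p = 0.188) and 0.84 ± 0.30 for dnajb6a (adjusted p = 0.244). That of hspa4a was 1.30 ± 0.54 (adjusted p = 0.309) and that of dnaja2b -0.28 ± 0.28 (adjusted p = 0.657). Across the 58 genes, 41 differed in the same direction in both genotypes, 24 higher and 17 lower, with a Pearson r of 0.842 between the 2 sets of differences. These comparisons share no array but share the 2 tanks, and genes are not independent replicates. The agreement in direction and r were not computed over all probe sets, so neither is shown to be particular to these genes. With a vitellogenin covariate, dnajb12a passed as higher in ahcy+/- livers (0.98, adjusted p = 0.0367). Without the covariate its difference there was 0.52 ± 0.24 (adjusted p = 0.358). Mean vitellogenin was highest on regular-diet ahcy+/+ array 9 (13.9), where dnajb12a was lowest (6.39). The next highest was overfed ahcy+/- array 1 (12.40), 1 of the 2 overfed arrays of that genotype.

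**Figure D5:**
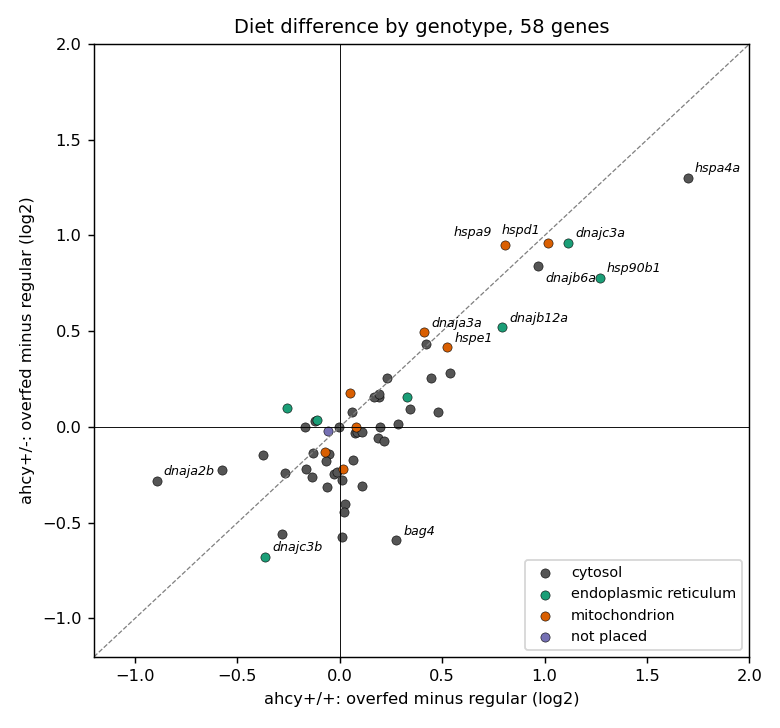
Overfed minus regular diet in ahcy+/+ livers (horizontal axis, log2) against the same in ahcy+/- livers (vertical axis, log2) for the 58 genes, coloured by compartment; the dashed line marks equal differences. The genes farthest to the right, hspa4a, hsp90b1, dnajc3a and hspd1, are also high on the vertical axis, and dnaja2b lies far to the left but only slightly below 0.

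Genotype was compared on each diet. None of the 58 genes passed between ahcy+/- and ahcy+/+ livers on the regular diet or after overfeeding, and none passed for a difference in diet response (limma; 0% of all probe sets were called in each of the 3 comparisons). At an unadjusted p under 0.05 there was 1 gene in each, and 459, 260 and 289 of all probe sets. On the regular diet dnaja2b was lower in ahcy+/- livers by -0.56 ± 0.24 (unadjusted p = 0.034, adjusted p = 1.0), with means of 7.18 ± 0.20 (SD, n = 3) and 7.74 ± 0.28 (SD, n = 4). After overfeeding the J protein gene dnajc18 was higher in ahcy+/- livers by 0.26 ± 0.12 (unadjusted p = 0.046, adjusted p = 1.0), and the same gene had the smallest interaction p (0.36 ± 0.16, unadjusted p = 0.0474). The interaction of dnaja2b, 0.61 ± 0.35, had an unadjusted p of 0.106, so its diet difference is not shown to be larger in ahcy+/+ livers.

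How 5 of these genes varied among livers of the same diet was described for 4 gene pairs, chosen after the values were seen and so given with no test (n = 7 arrays of both genotypes, all from 1 table). On the overfed arrays Pearson r was 0.885 for hspd1 with hspe1, 0.837 for hspd1 with hspa9, 0.918 for hspe1 with hspa9 and 0.969 for hsp90b1 with dnajc3a. Without the 2 arrays farthest from the median of the former gene these were 0.822, 0.713, 0.727 and 0.712. On the regular-diet arrays the same pairs gave -0.05, 0.616, -0.04 and 0.589. With the 2 farthest arrays left out in the same way these were 0.112, 0.235, -0.089 and 0.845. For hsp90b1 with dnajc3a the regular-diet value was then above the overfed one. Overfed ahcy+/+ array 3 had the lowest mean level of its group in the cytosol (7.33), the mitochondrion (8.25) and the endoplasmic reticulum (7.80). Single genes did not all follow their compartment. On overfed ahcy+/+ array 3, where hspd1 was lowest of its group, the mitochondrial dnajc19 was highest of its group at 9.35. On overfed ahcy+/- array 1 the endoplasmic reticulum gene dnajb12a was the lower of the pair, at 7.45, where hsp90b1 was the higher.

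The overfed arrays were not ranked alike by all genes. Overfed ahcy+/- array 1 read 10.54 for hspd1 and 8.11 for hspa4a, the lower of the pair, and 12.29 for hsp90b1, the higher. The cytosolic dnajb6a (7.09) and the mitochondrial dnajc30b (6.19) were also higher on array 1. Array 4 of the same group read 11.35 for hspd1, 10.09 for hspa4a and 10.97 for hsp90b1. The mean level of the 7 endoplasmic reticulum genes was 8.46 on array 1 and 8.13 on array 4, while that of the 8 mitochondrial genes was 8.21 and 8.56. These 2 arrays also differed in pancreas markers and in vitellogenin, which averaged 12.40 on array 1 and 6.56 on array 4. The part of either in this pattern was not tested.

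Other genes of protein folding that the name rule leaves out gave 39 measured genes, among them prefoldin subunits, HSP90 cochaperones, heat shock factors and mitochondrial proteases. Over both genotypes 7 passed as higher and 3 as lower, 25.6% against 10.3% of all probe sets, with a median log2 difference of 0.02. The list was chosen with earlier results of these data known, so that share is a description and not a test. The mitochondrial protease genes lonp1 (1.31 ± 0.19, adjusted p = 0.00177) and clpp (0.51 ± 0.10, adjusted p = 0.00794) rose, as did grpel1, the exchange factor of mortalin (0.90 ± 0.23, adjusted p = 0.0291). In the endoplasmic reticulum the exchange factor gene hyou1 (1.41 ± 0.38, adjusted p = 0.0319) and the J protein gene dnajb11 (2.14-fold, adjusted p = 0.0121) rose. BiP, the HSP70 on which both act, is encoded by hspa5, which differed by 0.40 ± 0.41 (adjusted p = 0.557). Prefoldin, which hands actin and tubulin to CCT, had pfdn5 lower (-0.39 ± 0.10, adjusted p = 0.0234). The protease lonp1 kept its call without any single array. Without overfed ahcy+/- array 4 the adjusted p was 0.0518 for clpp, 0.162 for grpel1 and 0.0925 for pfdn5. Without overfed ahcy+/- array 1 it was 0.131 for hyou1 and 0.0647 for dnajb11. Without regular ahcy+/- array 3, grpel1 and pfdn5 did not pass, nor did pfdn5 without overfed ahcy+/- array 1, and hyou1 did not pass without any one of 7 arrays. The hspa5 gene, the CCT subunit gene tcp1 and the heat shock factor gene hsf1 were looked up after the values were seen. The tcp1 gene differed by 0.39 ± 0.10 (adjusted p = 0.0335), a call lost without any one of 9 arrays, while hsf1 differed by 0.01 ± 0.16 (adjusted p = 0.969).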

How the data were processed

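The values are the authors' deposited log2 probe set summaries of 14 arrays. The submitters' processing notes name GCRMA and Partek without saying which made which step, and the log2 scale was read from the values, which run from 0.464 to 14.74. The scanner files were not used here. Of 15617 probe sets, 115 controls and 368 that were not above 4 on at least 2 arrays were left out. Gene symbols came from the platform annotation, and all 58 members matched the RefSeq table by Entrez ID with the same symbol.

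Group means were fitted to all 14 arrays and 15134 probe sets in R 4.3.3 by limma 3.58.1 (eBayes after lmFit, without covariates, 10 residual and 3.06 prior degrees of freedom), with Benjamini-Hochberg adjustment over all probe sets within a contrast and a threshold of 0.05. The averaged diet comparison is the mean of both genotypes' differences. Values after ± without another name are standard errors of log2 differences. Precision is limited by how many arrays there were. The fit was tested on simulated data. Named genes were all members that passed, up to 5 per compartment by smallest p in the diet contrasts and 3 in the genotype contrasts, the 3 of highest mean per compartment, the HSP90, HSP70, HSP110, CCT and BAG classes with the mitochondrial chaperonin, and 6 genes outside the rule by smallest p. Other single genes were named after their values were seen. The members and lists were chosen with earlier results of these data known. No sequence is printed, since none was at hand. Plots used Python 3.11.15 and matplotlib 3.10.9. Alternatives varied the filter, variance moderation, array weights, normalization, centring, covariates, replicate block, probe set choice and the arrays used.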

Additional observations from a re-analysis of the deposited data

Results flagged for a closer look

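Among 116 combinations of a gene with an ahcy+/+ group (4 regular-diet or 5 overfed arrays), 6 held an array whose gap to the nearest other array took up most of the group's range by Dixon's test at 95%. Chance alone flags about 1 in 20 such combinations. Regular-diet array 9 accounted for 3: hspa4a was high at 8.571 (7.519 to 7.646 on the other 3 arrays), hspbp1 was high at 6.635 (5.414 to 5.564) and cct3 was low at 9.827 (10.352 to 10.46). Overfed array 3 was low for hsp90b1 at 9.997, against 11.791 to 12.504 on the other 4 arrays. Overfed array 7 was high for dnaja1 at 6.983 (5.921 to 6.102), and overfed array 4 was high for hsp90aa1.2 at 6.199 (5.517 to 5.69). No gene passed the test of a difference in diet response between the genotypes.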

How the results depend on the processing

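No call of a member changed direction under any alternative. In ahcy+/+ livers the 5 calls became 13 with array weights and 8 with a vitellogenin covariate, and leaving out single arrays gave 0 to 9. In ahcy+/- livers the vitellogenin covariate gave 1. Over both genotypes the 7 calls became 11 with array weights, 10 with the vitellogenin covariate and 2 to 9 without single arrays, and 5 with pancreas and intestine covariates, which were chosen after seeing the data. The replicate block, which leaves 2 residual degrees of freedom, gave 0 in both. The labels state no link between arrays of the same number. Arrays of the same number in 2 groups had deviations correlated from -0.23 to 0.162. With groups of 2 to 5 arrays these correlations cannot decide whether such a link exists. The numbers were taken as names of fish that pair nothing, so the main fit had no block. The value of -0.23 is that of overfed ahcy+/+ array 4 with overfed ahcy+/- array 4. The former is numbered 4 in its title but 5 in its description, and the title's number was used. No member was called for genotype or interaction under any alternative. The mitochondrial median in ahcy+/+ livers, 0.25, was 0.39 with the replicate block. Over both genotypes it was 0.28, but 0.36 after centring on array medians and 0.46 with the replicate block. In ahcy+/- livers it was 0.30, but 0.41, 0.52 and 0.21 with centring, the block and the pancreas and intestine covariates, and 0.16 to 0.35 without single arrays. There the cytosolic genes that were higher numbered 16, but 25 with the replicate block (median 0.16) and 8 to 25 without single arrays. Centring shifted the median of all probe sets in the ahcy+/- diet comparison by 0.107. Groups of 2 to 5 arrays limit the precision of every difference.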
